A study of Mus musculus with 2 samples.

Results

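The genes described here are the 2 corticosteroid receptors, Nr3c1 and Nr3c2, and 7 genes of the corticosteroid response, Fkbp5, Tsc22d3, Sgk1, Klf9, Zbtb16, Hsd11b1 and Ddit4, which makes 9 of the 53801 genes listed for each library. They were chosen by name for their known function, with earlier results of these libraries known. Their levels were read from 2 libraries of microglia sorted from mouse brain 3 days after sham surgery, each from the brain of 1 mouse. Both mice were Cx3cr1(CreER/wt) males on a C57BL/6 background, labelled as 8 to 10 weeks old, while the study's methods give an older range and both sexes. They carried a tamoxifen-inducible Cre in 1 allele of Cx3cr1, with no floxed target named, as controls for conditional knockouts, and had received tamoxifen at 75 mg/kg per day for 4 days, with surgery 14 days after the first dose. Sham mice had the anesthesia and the operation without occlusion of the artery. The treatment field of the labels reads none, and the titles name sham. Cells were taken from the left hemisphere and gated as CD11c–Ly6G–CD11b+CD45low. The libraries of the stroke arm were not analysed here, so no condition was compared. Every difference given is between 2 libraries of 1 group, 1 from each mouse, so mouse and library preparation cannot be told apart.

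Corticosterone, the main glucocorticoid of the mouse, enters cells and binds the glucocorticoid receptor, which waits in the cytoplasm with HSP90 and its partner proteins and then moves to the nucleus to switch genes on or off. The mineralocorticoid receptor binds the same hormone with higher affinity. Hsd11b1 encodes an enzyme that regenerates active corticosterone inside cells. Among the response genes, Fkbp5 encodes a cochaperone that lowers the affinity of the receptor for hormone, Tsc22d3 encodes the anti-inflammatory protein GILZ, Sgk1 encodes a kinase, Klf9 and Zbtb16 encode transcription factors, and Ddit4 encodes an inhibitor of mTORC1. The files hold no measurement of the hormone.

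The receptor binds DNA as a pair at 2 arms of the letters AGAACA arranged as an inverted repeat 3 bases apart, so the bases before the starts of the members were searched for these letters. RefSeq windows of GRCm38.p6, from 250 bases before to 50 bases after a transcription start, were at hand for 7 members, in 14 windows. The full palindrome of both arms was found in 3 of all 32851 windows (0.00913%), and 1 of the 3 belongs to Sgk1, which has 6 windows. The other windows that hold it are those of Acnat2 and Gm35041. In Sgk1 it lies 189 to 175 bases before the start at base 21993890 of chromosome 10. A single arm on either strand was found in 19.0% of all windows and in 4 of the 14 member windows, of which 3 belong to Sgk1 and 1 to Tsc22d3. The windows of Nr3c2, Fkbp5, Klf9, Hsd11b1 and Ddit4, 1 for each gene, hold no arm. Bases outside the windows were not searched, so an arm elsewhere in or near these genes would not be seen. The 250 bases before that start of Sgk1 (chr10:21993640-21993889, plus strand) are shown because they hold the palindrome, and the stretch of Tsc22d3 (chrX:140600682-140600727, minus strand) because it holds a single arm. Capitals mark the arms and, in the palindrome, also the 3 bases between them.
Sgk1: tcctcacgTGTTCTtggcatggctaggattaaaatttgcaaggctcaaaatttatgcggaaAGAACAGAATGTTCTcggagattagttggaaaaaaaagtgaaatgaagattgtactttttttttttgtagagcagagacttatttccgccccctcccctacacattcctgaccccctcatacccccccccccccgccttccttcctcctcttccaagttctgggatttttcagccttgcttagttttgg
Tsc22d3: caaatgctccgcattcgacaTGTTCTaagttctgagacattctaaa

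A looser form of the palindrome, which keeps ACA and TGT 3 bases apart and the outer G and C of each arm, was found in 0.475% of all windows. Besides the Sgk1 window above, which it overlaps, it was found for 3 of the 46 other genes of the corticosteroid lists described below that had a window, namely Mt1, Txnip and Fam107a. These are shown to set their letters beside those of Sgk1, with the 13 bases of the looser form in capitals. The stretch of Mt1, a metal-binding metallothionein, is at chr8:94178975-94179027 (plus strand), Txnip, an inhibitor of thioredoxin, at chr3:96557765-96557817 (plus strand), and Fam107a at chr14:8309865-8309917 (minus strand). Genes can have several windows, as Sgk1 does, so the 3 of 46 genes cannot be set against the share of all windows. Such letters are a description of sequence, and binding was not measured.
Mt1: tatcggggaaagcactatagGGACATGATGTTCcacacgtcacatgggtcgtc
Txnip: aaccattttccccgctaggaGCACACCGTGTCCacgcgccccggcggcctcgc
Fam107a: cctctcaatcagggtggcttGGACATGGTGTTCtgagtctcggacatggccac

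The files gave 23381026 counts on genes for library 1 against 41142609 for library 2. Levels are given as counts per 1000000 counts on genes (CPM), and levels of different genes are compared as counts per exon length, scaled to 1000000 (TPM). A pair of values is given in the order library 1, library 2, and all coordinates are of GRCm38. Where no count was seen, 3 counts were taken as the limit, which is 0.128 CPM for library 1 against 0.0729 CPM for library 2. The 10 microglia markers were abundant in both, summing to 51226 and 47240 CPM with none at 0. The libraries differed in RNA of other cells. All 12 neutrophil markers were more than 2-fold higher in library 2, with none at 0 in either library, and they summed to 4357 CPM against 59249 CPM, with Ngp the most abundant (749 and 16031 CPM). Monocyte markers summed to 222 and 436 CPM, astrocyte markers to 223 and 172 CPM, oligodendrocyte markers to 98.6 and 108 CPM, endothelial markers to 17.6 and 15.4 CPM, and neuron markers to 2.95 and 4.86 CPM. Choroid plexus markers summed to 23.7 and 365 CPM, and basophil or mast cell markers to 0.0855 and 165 CPM. A gene is called counted here where each library gave it 10 counts or more, which held for 13445 genes. Of these, 31.7% lay past 2-fold in CPM, 5.74% higher and 25.9% lower in library 2, with a median log2 ratio of −0.26. In bulk RNA, fewer cells of a type and less RNA per cell cannot be told apart.

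Of the 9 members, 8 were counted in both libraries, and Zbtb16 was not. Sgk1 had the highest level per length and was at or above 98.5% of the counted genes by mean TPM. That percentile was 96.1 for Tsc22d3, 85.2 for Nr3c1, 66.7 for Hsd11b1, 57.4 for Fkbp5, 32.0 for Ddit4, 29.0 for Nr3c2 and 6.27 for Klf9. The response genes thus ran from near the bottom to near the top of the counted genes. In this order, the ranges of the 2 libraries overlapped for the neighbours Hsd11b1 and Fkbp5 and for Ddit4 and Nr3c2, and did not overlap for the other neighbours. With the length of the longest transcript in place of all exons, the ranges of Nr3c1 and Hsd11b1 also overlapped, and Hsd11b1 stood above Nr3c1 in library 2 (68.1 and 41.6 TPM).

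**Figure D1:**
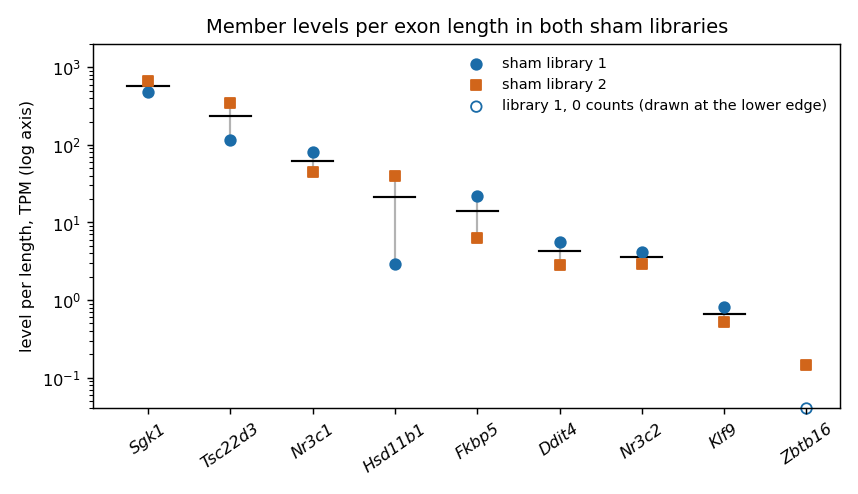
Level per exon length (TPM, log axis) of the 9 members in sham library 1 (circles) and sham library 2 (squares), ordered by their mean (black bars, n = 2, none for Zbtb16), with a grey line joining the 2 values. Sgk1 had 481 and 660.2 TPM and Klf9 0.808 and 0.521 TPM, and the widest gap was that of Hsd11b1, with 2.92 and 40.2 TPM. The open circle at the lower edge stands for the 0 counts of Zbtb16 in library 1.

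Nr3c1, the glucocorticoid receptor gene (ENSMUSG00000024431, chromosome 18 of GRCm38, 39410545 to 39491301), was well expressed in both mice. Its counts were 5091 and 6105, or 218 and 148 CPM in that order of libraries, with a mean of 183 ± 49.0 CPM (SD, n = 2). Per length it had 80.6 and 44.3 TPM. Library 1 was higher, by 1.47-fold, and 47.3% of the counted genes differed by no more than this. Its log2 ratio, library 2 over library 1, was −0.55, and it was −0.032 after adjustment for GC content and length, which subtracts the median ratio of genes alike in both. The annotation used here for lengths ends the gene at 39519421, past the end in the deposited files.

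Nr3c2, the mineralocorticoid receptor gene (ENSMUSG00000031618, chromosome 8, 76899442 to 77245012), was present at a low level. It had 224 and 341 counts, or 9.58 CPM (95% Poisson interval 8.37 to 10.9) against 8.29 CPM (7.43 to 9.22), with a mean of 8.93 ± 0.914 CPM (SD, n = 2). The counting intervals of the 2 libraries overlapped. Its log2 ratio of −0.21 had an interval of −0.46 to 0.041 and turned to 0.021 with TMM scaling. Exons of Gm10649 on the other strand cover 3.82% of its exon bases, and it is not stated whether counting used the strand.

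The glucocorticoid receptor transcript exceeded the mineralocorticoid receptor transcript in both mice. Per length, Nr3c1 was 19.1-fold higher than Nr3c2 in library 1 (95% exact interval 16.7 to 21.99) and 15.1-fold higher in library 2 (13.5 to 16.9), a mean of 17.1 ± 2.87 (SD, n = 2). The excess was larger than the change of either gene between the mice. Intervals here and below cover counting error only, since amplified reads are not independent molecules, and not the spread between mice. By level in both libraries, the protein-coding genes closest to Nr3c1 among 11500 were Rpl14, Tpt1 and Hps4, at distances of 0.041, 0.042 and 0.048 on the log2 scale. With 2 libraries, 9 genes lay within 0.1, so this likeness is one of level alone. Rpl14 and Tpt1 have processed pseudogenes that can share their reads, which leaves their levels uncertain.

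Hsd11b1 was the member that differed most between the 2 mice. This gene of the enzyme that regenerates corticosterone (ENSMUSG00000016194, chromosome 1, 193221634 to 193264075) was counted 102 times in library 1 against 3068 times in library 2. That was 4.36 CPM (3.56 to 5.30) against 74.6 CPM (72.0 to 77.3), or 17.1-fold higher in library 2, a log2 ratio of 4.10 (exact counting interval 3.81 to 4.39). Its mean of 39.5 ± 49.6 CPM (SD, n = 2) is set by library 2. Of the counted genes, 99.8% differed by no more than this in either direction. The 12 neutrophil markers were together 13.6-fold higher in the same library. Choroid plexus markers (23.7 and 365 CPM) and basophil or mast cell markers (0.0855 and 165 CPM) were higher there too. The part of each in the level of Hsd11b1 was not tested.

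H6pd, which supplies the enzyme with NADPH in the endoplasmic reticulum, went the other way. Its level was 91.9 CPM against 11.9 CPM, a log2 ratio of −2.95, and −1.62 after the adjustment. Per length, the level of Hsd11b1 was 0.0585 of that of H6pd in library 1 (0.0475 to 0.0714) and 7.71-fold that of H6pd in library 2 (7.01 to 8.50). With longest transcripts as lengths these were 0.114 and 15.02. Hsd11b1 was thus the lower of the pair in library 1 and the higher in library 2. Hsd11b2, whose enzyme inactivates corticosterone, had 2 counts in each library, which is under the floor of 3 counts.

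Tsc22d3, the gene of GILZ (ENSMUSG00000031431, chromosome X, 140539528 to 140600659), was abundant in both libraries and higher in library 2. It had 4138 and 27236 counts, or 177 and 662 CPM, with a mean of 419 ± 343 CPM (SD, n = 2). The difference was 3.74-fold, a log2 ratio of 1.90 (1.86 to 1.95), and 97.8% of the counted genes had a ratio no higher. It was 1.93 after the adjustment for GC content and length. The neutrophil, choroid plexus, and basophil or mast cell markers were higher in the same library, and their part in it was not tested.

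Its paralog Tsc22d4 was lower in library 2, with 182 and 66.6 CPM, and so was Tsc22d2, with 110.0 and 14.9 CPM. After the adjustment for GC content and length the log2 ratio was −0.011 for Tsc22d4 and −2.07 for Tsc22d2. Tsc22d1 had 12.6 and 19.8 CPM, a log2 ratio of 0.65 that was 2.34 after the adjustment. Per length, Tsc22d3 was 1.68-fold higher than Tsc22d4 in library 1 (1.61 to 1.76) and 17.2-fold higher in library 2 (16.5 to 17.9). In both mice Tsc22d3 had the highest level of the 4 genes per length.

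Sgk1, the gene of the serum- and glucocorticoid-regulated kinase (ENSMUSG00000019970, chromosome 10, 21882184 to 21999903), was the most abundant member in both mice. It was counted 19394 and 58109 times, or 829 and 1412 CPM, with a mean of 1121 ± 412 CPM (SD, n = 2). Library 2 was 1.70-fold higher, a log2 ratio of 0.77 that was 1.04 with DESeq2 size factors. Per length, Sgk1 was 38.9-fold higher than its paralog Sgk3 in library 1 (36.9 to 41.0) and 55.0-fold higher in library 2 (53.1 to 57.1), and with longest transcripts as lengths 16.3-fold and 23.0-fold. Sgk2 had 1 and 4 counts. Sgk1 also exceeded Nr3c1 per length, by 5.97-fold in library 1 and by 14.9-fold in library 2.

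Fkbp5 (ENSMUSG00000024222, chromosome 17, 28399095 to 28517524) was the only counted member that was more than 2-fold lower in library 2. It had 1692 and 1082 counts, or 72.4 and 26.3 CPM, with a mean of 49.3 ± 32.6 CPM (SD, n = 2). Library 1 was 2.75-fold higher, a log2 ratio of −1.46 (−1.57 to −1.35), and 81.7% of the counted genes differed by no more than this in either direction. After the adjustment for GC content and length it was −0.72, within 2-fold. Fkbp5 and Tsc22d3, both induced by glucocorticoids in many cells, thus differed in opposite directions between these mice.

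Fkbp4 encodes the cochaperone that opposes the product of Fkbp5 in the receptor complex. Its level was 158 CPM against 143 CPM, a log2 ratio of −0.15. Per length it exceeded Fkbp5 by 7.40-fold in library 1 (6.98 to 7.84) and by 18.4-fold in library 2 (17.2 to 19.6). With the longest transcripts as lengths these values were 3.15 and 7.81, still above 1 in both.

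Ddit4, the gene of the mTORC1 inhibitor REDD1 (ENSMUSG00000020108, chromosome 10, 59949669 to 59951834), had 81 and 90 counts. That was 3.46 CPM (2.75 to 4.31) against 2.19 CPM (1.76 to 2.69). The log2 ratio of −0.66 (−1.11 to −0.21) was within 2-fold. Klf9 (ENSMUSG00000033863, chromosome 19, 23141226 to 23166911) had 32 and 45 counts, or 1.37 CPM (0.936 to 1.93) and 1.09 CPM (0.798 to 1.46), and no difference was detectable at this depth. Klf13, a related factor, had 99.2 and 23.3 CPM, a log2 ratio of −2.09 that was −0.36 after the adjustment for GC content and length. The annotation used here for lengths ends Klf9 at 23168134, also past the end in the deposited files, so its level per length is less certain.

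Zbtb16, the gene of the factor PLZF (ENSMUSG00000066687, chromosome 9, 48654297 to 48836222), was at or near the detection limit. No count was seen in library 1, where the limit is 0.128 CPM. Library 2 had 14 counts, or 0.340 CPM (0.186 to 0.571). The value of 0.340 CPM is 2.65-fold the limit in library 1, which leaves out the counting error of the 14 counts. PLZF is known from innate-like lymphocytes. Of 9 lymphocyte markers, 3 were counted, 1 of them more than 2-fold higher in library 2, beside 5.74% of all counted genes. In each library 2 were at 0, Cd3e in both. Their sum of 572 and 793 CPM was mostly from Ighm, an immunoglobulin gene (517 and 720 CPM). Trac had 1 and 0 counts, Klrb1c 0 and 18, Cd3d 3 and 109, and Nkg7 37 and 527. The part of lymphocyte RNA in the Zbtb16 counts was not tested.

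Of the 8 counted members, 3 lay past 2-fold, beside 31.7% of all counted genes. Tsc22d3 and Hsd11b1 were higher in library 2, against a background of 5.74%, and Fkbp5 was lower, against 25.9%. The median log2 ratio of the 8 was −0.27, next to −0.26 for all counted genes. It was 0.69 after the adjustment for GC content and length, where the median of all genes is 0. That 0.69 lies between the middle values, Klf9 (0.60) and Nr3c2 (0.78), whose CPM ratios were negative with counting intervals that include 0. The 3 members past 2-fold in CPM did not share a direction. The receptors, Sgk1, Klf9 and Ddit4 stayed within 2-fold.

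**Figure D2:**
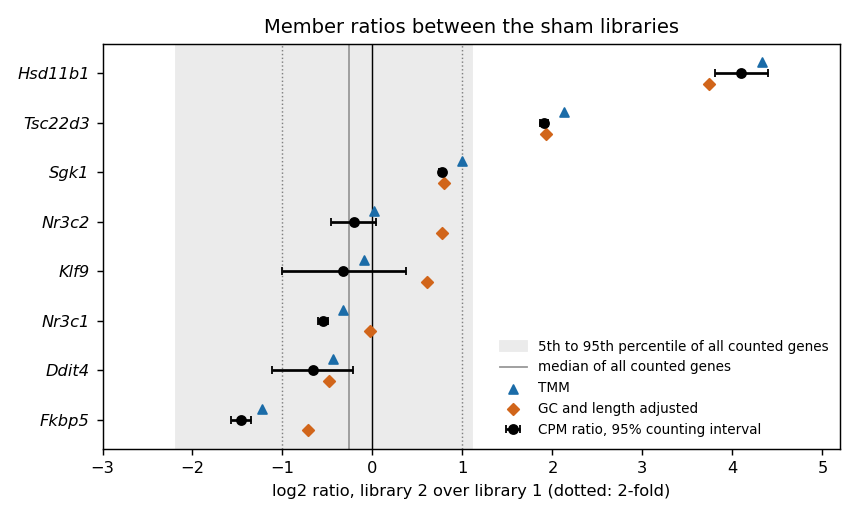
Log2 ratio of library 2 over library 1 for the 8 counted members. Black points are CPM ratios with 95% counting intervals, triangles use TMM scaling, and diamonds are adjusted for GC content and length. The grey band spans the 5th to 95th percentile of all 13445 counted genes (−2.19 to 1.11), and Hsd11b1 (4.10) and Tsc22d3 (1.90) lie to its right.

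**Figure D3:**
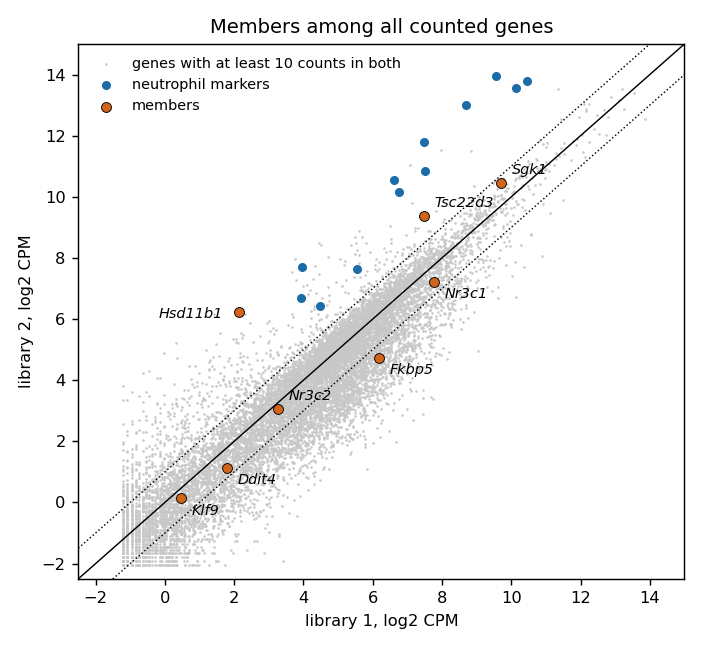
Level in library 1 against level in library 2 (log2 CPM) for all counted genes (grey), the 12 neutrophil markers (blue) and the 8 counted members (orange). The solid line marks equal levels and the dotted lines 2-fold. Hsd11b1 and Tsc22d3 lie above the upper dotted line, on the side of the neutrophil markers, and Fkbp5 below the lower one.

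The receptor's chaperones stayed within 2-fold in CPM between the mice. All 11 genes of this list were counted, and 0 lay past 2-fold, beside 31.7% of all counted genes, with the same median log2 ratio of −0.26 as all counted genes. After the adjustment for GC content and length their median was −0.41, where that of all counted genes is 0. Dnaja1 (1.23) and Ppid (1.01), a heat shock partner and a cochaperone, were then more than 2-fold higher in library 2, and 0 were more than 2-fold lower. The highest per length were Hspa8 (1153 and 978 TPM) and Hsp90ab1 (1101 and 667 TPM), which encode the chaperones HSC70 and HSP90 beta, and Bag1 (217 and 135 TPM), a regulator of HSC70. Ptges3, the gene of the p23 cochaperone that holds the receptor in its hormone-binding form, had 136 and 92.1 CPM.

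Coregulator genes, which encode the proteins a hormone-bound receptor recruits at its targets, were lower in library 2. Of the 12 genes, all were counted, 12 were lower and 10 were lower by more than 2-fold, beside 25.9% of all counted genes. At least 56.7% of all counted genes were lower in any degree. The median log2 ratio of the 12 was −1.46, against −0.26 for all counted genes. By the mean of the libraries, the highest per length were Nrip1 (89.3 and 23.6 TPM), a corepressor, Ncoa3 (74.7 and 10.7 TPM), a coactivator, and Smarca4 (49.7 and 17.9 TPM), the ATPase of the SWI/SNF chromatin remodelling complex. In library 2 alone Hdac2, a histone deacetylase, was the highest, with 38.7 and 26.6 TPM, and with longest transcripts as lengths its mean of 35.2 TPM was above those of Ncoa3 (34.9 TPM) and Smarca4 (26.8 TPM). These are long transcripts, with a median of 7946 bases against 3106 for all counted genes. After the adjustment for GC content and length the median was −0.45, 3 of the 12 were lower by more than 2-fold, and Ncoa1, Crebbp and Smarca4 turned to 0.44, 0.066 and 0.57. With DESeq2 size factors Hdac2 was the 1 gene not lower in library 2.

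Among 23 further corticosteroid-induced genes, 21 were counted, 4 were more than 2-fold higher and 5 more than 2-fold lower in library 2, beside 5.74% and 25.9% of all counted genes. After the adjustment for GC content and length, 5 were higher, with Cebpd (1.66) added, and 2 lower. The median log2 ratio was −0.10, and it was 0.13 with TMM and 0.30 after the adjustment. By the mean of the libraries, the highest per length were Dusp1 (1529 and 2539 TPM), a MAP kinase phosphatase, Nfkbia (1307 and 2099 TPM), the inhibitor of NF-κB, and Zfp36 (1678 and 1258 TPM), which promotes decay of cytokine mRNA. In library 2 alone Lcn2 was the highest (2608 TPM) and Anxa1 (1652 TPM) also exceeded Zfp36, and with longest transcripts as lengths Lcn2 was next to Dusp1 by mean (2164 and 2285 TPM). Dusp1 had a log2 ratio of 1.04, while that of Zfp36 was −0.10 and turned to 0.097 after the adjustment. Cell isolation can raise these early-response genes, and 7 early-response genes outside this list summed to 13351 and 14986 CPM. Their part in these levels was not tested.

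The 3 genes of this list that were highest in library 2 relative to library 1 were Anxa1, Lcn2 and Il1r2. Anxa1, which encodes annexin A1, had 135 and 2099 CPM. Lcn2, a siderophore-binding granule protein of neutrophils, had 250.3 and 2985 CPM, and Il1r2, the decoy receptor of interleukin-1, had 26.6 and 109 CPM. All of the neutrophil markers were higher in the same library, as were the choroid plexus and the basophil or mast cell markers. Their part was not tested. Lower in library 2 were Cd163 (48.5 and 10.8 CPM), a scavenger receptor of border macrophages, Per1 (22.5 and 6.68 CPM), a clock gene, Bcl6 (34.2 and 10.4 CPM) and Tnfaip3 (104 and 46.2 CPM). The fifth, Fam107a, had 14 and 12 counts and a log2 ratio of −1.04 with a counting interval of −2.28 to 0.18, so no difference was detectable at this depth. After the adjustment, Cd163 (−1.24) and Bcl6 (−1.21) were still more than 2-fold lower. Of 6 border macrophage markers, 5 were also lower, 2 of them by more than 2-fold, beside 25.9% of all counted genes. Their median log2 ratio was −0.36, next to −0.26 for all counted genes. They summed to 660.5 and 327 CPM with none at 0 and F13a1 the most abundant (225 and 64.7 CPM), and their part was not tested. Mt1 and Txnip, whose promoter letters are shown above, stayed within 2-fold, and exons of Gm15441 on the other strand cover 19.4% of those of Txnip. Of 9 paralogs of the members, 7 were counted, 0 were more than 2-fold higher and 3 more than 2-fold lower, beside 5.74% and 25.9% of all counted genes, with a median log2 ratio of −0.15 that was 0.082 with TMM. After the adjustment for GC content and length, 1 was higher (Tsc22d1) and 1 lower (Tsc22d2).

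**Figure D4:**
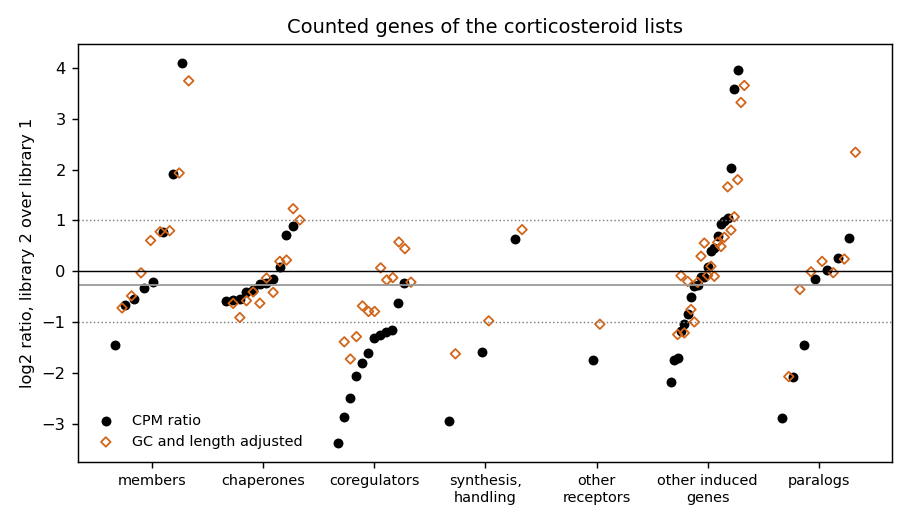
Log2 ratio of library 2 over library 1 for every counted gene of the members and the 6 other corticosteroid lists, as CPM ratio (black) and adjusted for GC content and length (open diamonds). The dotted lines mark 2-fold, the black line equal levels and the grey line the median of all counted genes (−0.26). Before the adjustment, all 11 chaperones lie within 2-fold and 10 of the 12 coregulators lie below the lower line.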

How the data were processed

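RNA-seq counts of 2 sham libraries were analysed. Per the submitters' processing notes and the study's methods, the authors used HISAT2 on GRCm38 and then HTSeq, and deposited raw counts for each Ensembl gene. cDNA was made with the SMART-Seq HT Kit and tagmented. Versions, annotation release and strand setting are not given in the sources used here. Gene starts in the files count from 0 and are printed from 1.

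Symbols came from a table of gene names, which matched 53620 of 53801 identifiers. Exon lengths, transcript lengths and GC content came from GENCODE M21, which uses GRCm38 but ends some genes, Nr3c1, Fkbp5 and Klf9 among them, elsewhere than the files do. CPM used file totals of 23381026 and 41142609 counts. TPM used all exons of a gene merged. Single counts have 95% Poisson intervals, and ratios of counts exact Clopper-Pearson intervals. With 1 group, no test was run. A planned comparison of protein sequences was not made, as no protein table was used here. TMM factors and the common dispersion came from edgeR 4.0.16 and size factors from DESeq2 1.42.0 (R 4.3.3). Intervals came from scipy 1.17.1 and plots from matplotlib 3.10.9, under Python 3.11.15 with pandas 2.3.3. The GC and length adjustment subtracts the median log2 ratio of counted genes in the same of 10 GC and 10 length bins, or of the GC bin alone where under 20 genes share both. Ratios, intervals and dispersion were tested on simulated data.

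Members and gene lists were chosen with earlier results of these data known. Named were the members, the 3 genes of highest TPM in each list, other genes of those lists, and the 3 protein-coding genes nearest to Nr3c1. Marker lists were given as sums, with the most abundant gene where a sum differed by more than 2-fold, and some lymphocyte markers were also named.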

Additional observations from a re-analysis of the deposited data

How the results depend on the processing

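No paired analysis was possible because both libraries belong to 1 group. The median log2 ratio of all counted genes was −0.26 with CPM, −0.033 with TMM, 0.012 with DESeq2 size factors and 0 after the GC and length adjustment. The ratio of Nr3c2 turned to 0.021 with TMM, 0.066 with DESeq2 and 0.78 after the adjustment, and that of Klf9 to 0.60 after it, and for the other counted members the sign was kept under each scaling run. The number of members past 2-fold was 3, and between 2 and 4 under the alternatives. The biological coefficient of variation between the 2 libraries was 0.479 with edgeR and 0.550 without a filter on low counts. It was 0.287 as the median of DESeq2 gene estimates, a different summary. With 1 library for each mouse, this spread holds differences of preparation, depth and sorted cells together with those between mice. The excess of Nr3c1 over Nr3c2 was 15.1 to 19.1 with 1 library left out and 18.7 with longest transcripts. By longest transcripts the level per length of Fkbp5 moved from 14.1 to 26.9 TPM and that of Sgk1 from 571 to 709 TPM. Of the genes in the 6 corticosteroid lists, 54 were counted, and 50 to 58 with minima of 50 or 1 counts. Leaving out 1 of 2 libraries always stays within 1 SD, so it says nothing about stability. Totals without the neutrophil markers, chosen after seeing the data, kept 3 members past 2-fold. Low counts limit Klf9, Ddit4 and Zbtb16.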

Other observations

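Esr1, the gene of the estrogen receptor that tamoxifen binds, was counted in both libraries, at 34.1 CPM against 10.1 CPM. Its log2 ratio was −1.75, and −1.04 after the GC and length adjustment. Both mice carried the tamoxifen-inducible CreER, and whether its reads were counted on Esr1 was not tested. The level of Esr1 itself is therefore uncertain. Pgr and Esr2 had 0 counts in both libraries. Per length, Nr3c1 exceeded Esr1 by 11.3-fold in library 1 and by 26.0-fold in library 2, and with longest transcripts as lengths by 6.28-fold and 14.4-fold.

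Of 10 genes of corticosteroid synthesis and handling, 3 were counted, 2 of them more than 2-fold lower in library 2 (H6pd and Abcb1b), beside 25.9% of all counted genes, and 1 (H6pd) after the GC and length adjustment. The third, Srd5a1, a steroid reductase gene, had 15 and 41 counts. In this list 4 genes had 0 counts in both libraries, Cyp11b1, Cyp11b2, Cyp21a1 and Serpina6. Cyp11a1, which encodes the enzyme of the first step from cholesterol, was counted 0 and 83 times. Its CPM in library 2 was 15.7-fold the limit in library 1, without the counting error of the 83 counts. Basophil or mast cell markers had 2 counts in library 1, with 3 of the 4 genes at 0, and 6782 counts in library 2, most of them from Prss34, and their part in the counts of Cyp11a1 was not tested. Abcb1b, an exporter that carries corticosteroids, had 19.9 and 6.61 CPM.

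Mt2 had 9 and 11 counts where its neighbour Mt1 had 2340 and 4374. Exons of other genes cover 73.5% of the exon bases of Mt2 and none of those of Mt1, and the strand setting of the counting is not stated, so the level of Mt2 is uncertain. Choroid plexus markers summed to 23.7 and 365 CPM, mostly from Ttr (21.9 and 356 CPM).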
